A study of Rattus norvegicus with 6 samples.

Results

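The genes described here are those by which cells answer interferon and show peptides to T cells, measured in the kidney cortex of rats dosed with tris(2-chloroethyl)phosphate (TCEP), an organophosphate flame retardant. The set holds 22 named genes and every gene whose symbol starts with RT1-, the name of the rat major histocompatibility complex (MHC). Of 67 RT1 symbols in the RefSeq gene table, 42 had a probe, 32 of them class I genes and 10 class II genes. The set thus came to 64 genes on 111 probes, out of 15284 genes with a named probe. It was chosen by gene function, with earlier results of these data known.

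Renal cortex was taken from male Sprague-Dawley (Crl:CD(SD)) rats, an outbred stock bought at 5 weeks of age, and its total RNA was labelled with Cy3 and hybridised to 1-colour Agilent arrays. The TCEP group was 3 rats given 400 mg/kg/day for 4 weeks, and the vehicle group was 3 rats given corn oil over an equal time. The question put to the cortex is which of its transcripts differ after TCEP. All TCEP arrays lay on one slide with a scan of its own and all vehicle arrays on another, so slide, scan and treatment cannot be told apart in any difference given below.

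The levels given are log2 processed signals minus the 75th percentile of the array, so that 1 unit is a 2-fold change of signal, and each gene is read from its brightest probe unless another is named. Per array, 67.2% to 69.3% of 61657 probes, controls left out, were well above background. All 11 renal cortex markers with a probe were well above background on all 6 arrays, among them Slc34a1, the phosphate carrier of the proximal tubule, with levels of 8.25 to 8.51, and Lrp2, an endocytic receptor of the same tubule, with levels of 6.20 to 6.55.

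Interferons are secreted proteins that bind receptors on neighbouring cells and, through Janus kinases, activate STAT proteins and interferon regulatory factors, which bind short DNA elements before their target genes. Type I interferons act mainly through a complex that holds Stat2 and Irf9 and binds the interferon-stimulated response element, and interferon gamma acts through another site and through Irf1. The targets include antiviral effectors and the machinery that cuts proteins into peptides, carries them into the endoplasmic reticulum and loads them on MHC class I. In the kidney, tubule cells carry class I, while class II is carried mainly by dendritic cells and macrophages and can be induced on tubule cells.

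The promoters of the set are shown first, because they name the DNA element through which many of its members are known to be controlled. Of the 64 genes, 56 had an entry in the RefSeq promoter table of build GRCr8, and Mx2, Isg15 and Ifit2 were among those without one. The 250 bases before each start were searched on both strands for the core of the interferon-stimulated response element (GAAA, any 2 bases and GAAA again), which 13 of the 56 (23.2%) held, against 3.29% of all 27457 promoters in the table. The search for TTCNNNGAA, the STAT site, which reads the same on both strands, found 8 of the 56 (14.3%), against 7.52% of all promoters. The element stood in 5 of 11 interferon-response promoters, 3 of 28 class I promoters, 0 of 9 class II promoters and 5 of the other 8 antigen presentation promoters. The 6 stretches that follow run 5′ to 3′ along the gene's own strand, with the element or its reverse complement in capitals, and were chosen as examples of an interferon regulator, antiviral effectors, the class I light chain, a peptide carrier and an immunoproteasome subunit.
Irf7, chr1:205800053-205800122, minus strand: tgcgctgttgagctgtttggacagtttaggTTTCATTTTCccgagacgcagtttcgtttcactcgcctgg
Ifit3, chr1:241527252-241527321, plus strand: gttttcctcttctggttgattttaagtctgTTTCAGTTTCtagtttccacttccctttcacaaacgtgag
Oas1a, chr12:41330395-41330465, plus strand: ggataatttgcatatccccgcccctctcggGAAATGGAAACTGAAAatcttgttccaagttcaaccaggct
B2m, chr3:129549150-129549219, plus strand: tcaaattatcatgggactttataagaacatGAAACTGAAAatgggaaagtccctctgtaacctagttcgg
Tap1, chr20:4668625-4668694, minus strand: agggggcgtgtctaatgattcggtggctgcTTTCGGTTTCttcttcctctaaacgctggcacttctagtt
Psmb10, chr19:50743293-50743395, minus strand: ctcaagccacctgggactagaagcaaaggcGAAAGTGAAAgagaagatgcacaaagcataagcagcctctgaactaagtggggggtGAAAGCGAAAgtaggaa
The Oas1a stretch holds 2 overlapping copies of the element and the Psmb10 stretch holds 2 separate ones. In the other 4 stretches the single copy has its near edge 59 bases (Irf7), 34 bases (Ifit3), 140 bases (B2m) and 111 bases (Tap1) before the start. A match is a run of letters, and binding was not measured.

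After TCEP, no member of the set differed from vehicle past the threshold of an adjusted p under 0.05 (limma with Benjamini-Hochberg adjustment over all 11804 genes tested). The same held for every other gene on the arrays (0 of 11804, 0.00%). Of the 64 members, 56 passed the filter on dim probes, which keeps a gene when every array of 1 group or of both was well above background for it. The 8 that did not were 6 class I genes (RT1-A3, RT1-CE6, RT1-M1-2, RT1-M1-4, RT1-M2 and RT1-T24-2) and 2 class II genes (RT1-Ba and RT1-Ha). At an unadjusted p under 0.05, 3 of the 56 passed (5.36%), against 8.33% of all genes tested. They were 1 higher in TCEP rats (Mx2), against 4.21% of all genes, and 2 lower (RT1-M1-5 and RT1-M5), against 4.12%. For 4 of the 56 (7.14%) the TCEP rats did not overlap with the vehicle rats, against 15.6% of all genes tested. They lay above for 1 (Mx2), against 8.63% of all genes, and below for 3 (B2m, RT1-M1-5 and RT1-M5), against 6.97%.

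The differences of the 56, TCEP minus vehicle, had a median of -0.07 on the log2 scale, beside 0.01 over all genes tested. The sign was positive for 17 and negative for 39, against 6192 and 5612 of all 11804 genes tested. Under at least 1 of the 15 alternatives described below, 45 of the 56 changed sign. The 95% confidence interval stayed within a 2-fold change either way for 48 of them. The other 8, whose intervals reached it, were Oas1a, RT1-A2, RT1-CE3, RT1-CE10, RT1-CE15, RT1-CE16, RT1-M1-5 and RT1-DOa. The members spread more within groups than genes at large, with a median SD within groups of 0.27 for the 56, against 0.13 for all genes tested. The renal cortex markers had a median SD of 0.23, so a wider spread was not particular to the set. In whole tissue, a lower level from fewer cells of a type and one from less RNA per cell cannot be told apart.

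**Figure D1:**
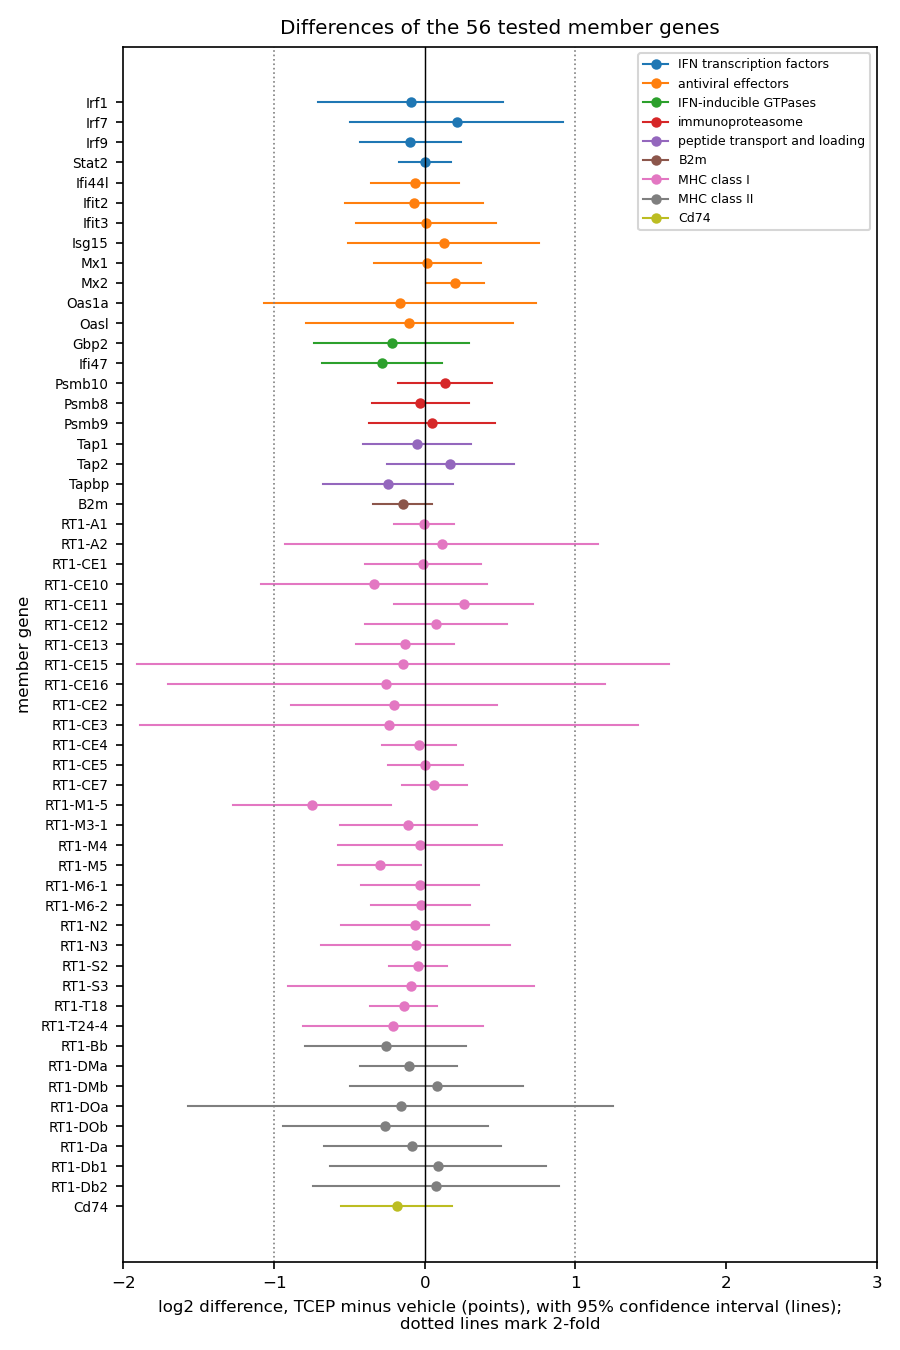
The horizontal axis gives the log2 difference, TCEP minus vehicle, of each of the 56 tested members (points) with its 95% confidence interval from limma (lines), with 3 rats per group, and colours mark the genes' roles. Most points lie within 0.3 of zero, RT1-M1-5 lies farthest from it at -0.75, and the widest intervals belong to RT1-CE15, RT1-CE3, RT1-CE16 and RT1-DOa.

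The regulators of the interferon response were 4 transcription factors, whose differences lay between -0.09 and 0.21. Irf7, the factor that amplifies type I interferon production, had levels of 1.61, 0.63 and 0.67 in the TCEP rats, against 0.70, 0.58 and 0.99 in the vehicle rats. The first TCEP rat stood above all others and the groups overlapped, and the difference was 0.21 (SE 0.29). Stat2, which carries the activating part of the type I complex, had levels of 1.93, 1.92 and 1.80 in the TCEP rats, against 1.86, 1.95 and 1.84 in the vehicle rats. Its difference of 0.00 (95% confidence interval -0.17 to 0.17) was among the most closely bounded of the set. Irf9, the DNA-binding part of that complex, differed by -0.09 (SE 0.14). Irf1, a factor induced by interferon gamma, had levels of 1.71, 1.73 and 2.24 in the TCEP rats, against 1.75, 2.47 and 1.74 in the vehicle rats. The highest level of Irf1 was thus in the second vehicle rat and the next in the third TCEP rat.

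The antiviral effectors were 8 genes, of which 4 had a positive and 4 a negative difference, with a median of -0.03. Oas1a, which makes the second messenger of the RNase L pathway, had levels of 0.82, -0.46 and -0.04 in the TCEP rats, against 0.52, -0.20 and 0.49 in the vehicle rats. Isg15, a ubiquitin-like protein joined to other proteins, had levels of 0.83, -0.08 and 0.67 in the TCEP rats, against 0.55, 0.12 and 0.36 in the vehicle rats. Oasl, a relative of the OAS enzymes, had levels of -4.71, -5.69 and -5.05 in the TCEP rats, against -4.94, -5.38 and -4.83 in the vehicle rats. For each of these 3 genes the first TCEP rat was the highest of the 6 and the second TCEP rat the lowest, so the extremes on both sides lay in the TCEP group. The differences were -0.16 (SE 0.37) for Oas1a, 0.13 (SE 0.26) for Isg15 and -0.10 (SE 0.28) for Oasl.

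The same 2 rats stood at the ends for most of the group. The first TCEP rat was the highest of the 6 arrays for 6 of the 8 antiviral effectors, and the second TCEP rat was the lowest for 6 of them. Over all 14 interferon-response members, the effectors with the regulators and GTPases, these counts were 8 and 9. Among all genes tested, the first TCEP rat was highest for 19.3% and the second TCEP rat lowest for 13.6%. These 2 rats were picked after the levels of the effectors were seen, so the counts only describe them and are no test. The median deviation of the antiviral effectors from their own means was 0.26, -0.37 and 0.07 in the TCEP rats, against 0.15, -0.20 and 0.09 in the vehicle rats. The dimmest probes of the 8 interferon-response members that had several tested probes gave 0.20, -0.52 and 0.05 in the TCEP rats, against 0.04, -0.12 and 0.16 in the vehicle rats. These 8 genes are not the 8 antiviral effectors, since they include Irf1, Irf9 and Stat2 and leave out Isg15, Oasl and Ifi44l. Their dimmest probes read the same RNA as their brightest ones and are not independent of them.

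The interferon-response members had a median difference of -0.07 (6 positive, 8 negative). This value rested on single rats, being 0.10 without the second TCEP rat, -0.0002 without the first vehicle rat and -0.12 without the first TCEP rat. Among the 22 tested probes of these genes, 8 deviated by 0.5 or more from the median of the 6 arrays in the second TCEP rat, all downwards, and 4 in the first, all upwards. On all 41040 tested probes such deviations made up 3.56% and 6.49% in these rats. Here too the rats had been picked after the levels were seen.

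**Figure D2:**
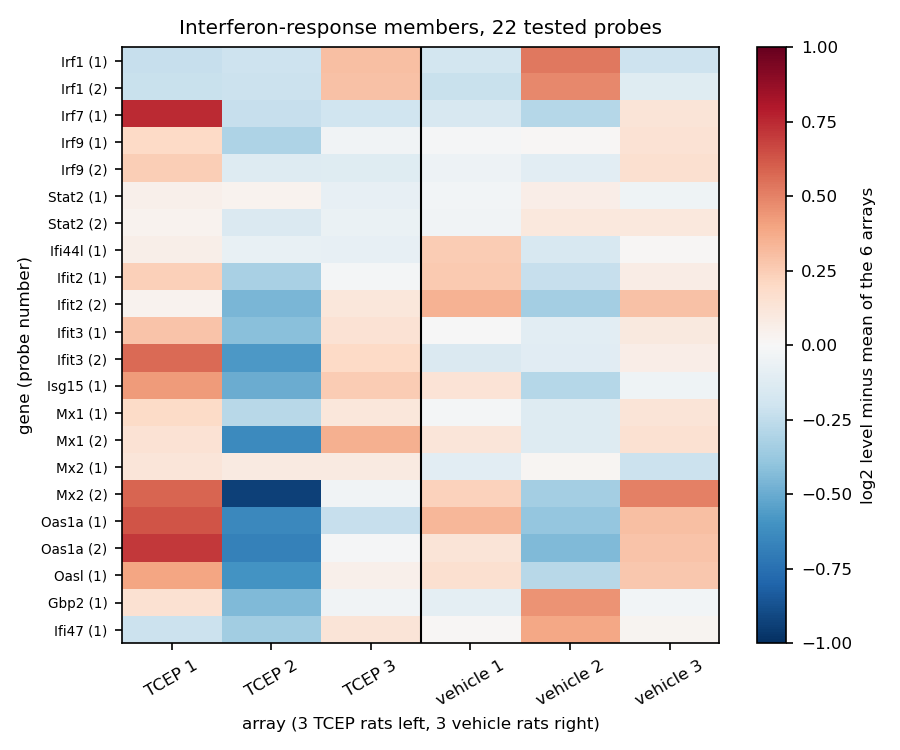
Each row is 1 of the 22 tested probes of the interferon-response members, numbered from the brightest within a gene, and each column is 1 array, with TCEP left of vehicle; colour gives the log2 level minus the mean of the 6 arrays. The column of the second TCEP rat is blue for most antiviral effectors and that of the first is red, while Irf1, Gbp2 and Ifi47 are highest in the second vehicle rat.

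Mx2 was the effector whose arrays did not overlap between groups, and its 2 probes pointed in opposite directions. Mx proteins are GTPases that block the replication of viruses. Its brightest probe had levels of 6.63, 6.59 and 6.60 in the TCEP rats, against 6.40, 6.53 and 6.29 in the vehicle rats. All TCEP rats lay above all vehicle rats, with a difference of 0.20 (SE 0.08, 95% confidence interval 0.01 to 0.39) and an adjusted p of 0.587 from limma with Benjamini-Hochberg adjustment. Its other probe had levels of -2.83, -4.34 and -3.44 in the TCEP rats, against -3.18, -3.74 and -2.91 in the vehicle rats. On that probe the difference was -0.26 and the groups overlapped, with the second TCEP rat lowest, as for most other effectors. Mx1, its paralog, had levels of 1.87, 1.40 and 1.79 in the TCEP rats, against 1.65, 1.54 and 1.80 in the vehicle rats, a difference of 0.02 (SE 0.14). The remaining effectors, Ifit2, Ifit3 and Ifi44l, had differences between -0.07 and 0.01.

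The interferon-inducible GTPases differed in pattern from the antiviral effectors. Gbp2, a guanylate-binding protein that acts on pathogen-containing vacuoles, had levels of 1.02, 0.43 and 0.84 in the TCEP rats, against 0.78, 1.32 and 0.84 in the vehicle rats. Ifi47, an immunity-related GTPase, had levels of -1.52, -1.65 and -1.18 in the TCEP rats, against -1.29, -0.92 and -1.28 in the vehicle rats. Both had their highest level in the second vehicle rat, as Irf1 did, and their lowest in the second TCEP rat. The differences were -0.22 (SE 0.21) for Gbp2 and -0.29 (SE 0.16) for Ifi47.

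Other genes of the interferon pathway also had 0 calls at the adjusted threshold. Among ligands, receptors and kinases of the interferon pathway, 7 of 16 listed genes were tested and 0 passed an unadjusted p under 0.05. Of the interferon genes with a probe, Ifna4 was well above background on all 6 arrays, and Ifnb1, Ifng and Ifnk were not so on any. Ifna4, a type I interferon, had levels of -2.35, -2.21 and -2.27 in the TCEP rats, against -2.28, -2.18 and -2.16 in the vehicle rats. Of 13 sensors and adaptors, 8 were tested, also with 0 past that level. Of 36 other interferon-stimulated genes, 29 were tested, 6 with a positive and 23 with a negative difference, and their median was -0.07. Past an unadjusted p under 0.05 were 1 higher (4.21% of all genes) and 2 lower (4.12% of all genes), or 3 of 29 against 8.33% of all genes, and 0 passed the adjusted threshold.

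Oas3, a further OAS enzyme, had levels of -3.49, -3.68 and -3.66 in the TCEP rats, against -3.11, -3.11 and -3.13 in the vehicle rats. The groups did not overlap, and the difference of -0.49 (SE 0.07) had an adjusted p of 0.533 from limma with Benjamini-Hochberg adjustment. Irf8, a factor of macrophages and dendritic cells, had levels of -4.62, -4.93 and -4.19 in the TCEP rats, against -4.08, -3.48 and -4.13 in the vehicle rats, a difference of -0.68 (SE 0.25) without overlap. Socs1, an inhibitor of Janus kinases, had levels of -5.18, -5.16 and -5.27 in the TCEP rats, against -4.69, -4.89 and -4.98 in the vehicle rats, a difference of -0.35 (SE 0.09). It was the 1 gene of 6 negative regulators tested past an unadjusted p under 0.05, a level that 8.33% of all genes passed, and it too missed the adjusted threshold (adjusted p 0.535 from limma with Benjamini-Hochberg adjustment).

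Cutting and transport of peptides for class I differed little between the groups. The immunoproteasome is the form of the proteasome in which Psmb8, Psmb9 and Psmb10 replace the usual catalytic subunits. Psmb9 had levels of 1.00, 0.97 and 1.10 in the TCEP rats, against 0.85, 1.36 and 0.72 in the vehicle rats. Psmb8 had levels of 0.57, 0.60 and 0.63 in the TCEP rats, against 0.51, 0.91 and 0.46 in the vehicle rats. Psmb10 had levels of 2.80, 2.86 and 2.87 in the TCEP rats, against 2.69, 2.96 and 2.49 in the vehicle rats. For all 3 subunits the highest array was the second vehicle rat and the lowest the third vehicle rat, with the TCEP rats close together between them. The SD was 0.07 in the TCEP group and 0.34 in the vehicle group for Psmb9, and the differences of the 3 genes lay between -0.03 and 0.13. The 7 constitutive beta subunits of the proteasome all had positive differences of at most 0.14, with a median of 0.09 and 0 past an unadjusted p under 0.05.

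Tap1 and Tap2 form the carrier that brings peptides into the endoplasmic reticulum. Tap1 differed by -0.05 (SE 0.15) and Tap2 by 0.17 (SE 0.17). Tapbp, or tapasin, which holds class I beside that carrier, had levels of -0.03, -0.06 and 0.22 in the TCEP rats, against 0.62, 0.23 and -0.01 in the vehicle rats, and differed by -0.24 (SE 0.18). B2m, the light chain shared by class I molecules, had levels of 7.41, 7.52 and 7.53 in the TCEP rats, against 7.55, 7.75 and 7.60 in the vehicle rats. All TCEP rats lay below all vehicle rats on that probe, but the difference was only -0.15 (SE 0.08), and its other 4 probes gave differences of -0.02 to -0.06. Of 19 other antigen processing genes, 16 were tested, 10 with a positive and 6 with a negative difference. Cd1d1, which presents lipids, was the 1 of the 16 past an unadjusted p under 0.05, against 8.33% of all genes, with levels of 1.20, 1.27 and 1.24 in the TCEP rats, against 0.91, 0.63 and 0.83 in the vehicle rats. Its difference was 0.45 (SE 0.09), with an adjusted p of 0.533 from limma with Benjamini-Hochberg adjustment.

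MHC class I genes had 0 calls at the adjusted threshold, and single rats stood far from the others of their own group. In the rat, RT1-A genes encode the classical class I molecules that present peptides to cytotoxic T cells, and the many RT1-CE, RT1-N, RT1-T and RT1-M genes are mostly nonclassical relatives. They are close copies, and a probe named for one may also bind another, so that a level is that of the probe and the gene behind it is uncertain. Rat strains differ in the sequence and number of these genes, and neither the genotypes of the rats nor the probes' letters were used here. Of the 26 class I genes tested, 5 had a positive and 21 a negative difference, with a median of -0.06. That median was 0.019 without the third TCEP rat.

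On several class I probes, though not on all, the third TCEP rat and the first vehicle rat stood apart together. RT1-CE16 had levels of 2.53, 2.46 and 3.77 in the TCEP rats, against 4.33, 2.59 and 2.61 in the vehicle rats. RT1-CE3 had levels of 0.48, 0.37 and 1.79 in the TCEP rats, against 2.48, 0.39 and 0.49 in the vehicle rats. RT1-CE15 had levels of -3.15, -3.43 and -1.90 in the TCEP rats, against -1.21, -3.37 and -3.47 in the vehicle rats. In each case the first vehicle rat was highest and the third TCEP rat next, while the other 4 rats lay close together. The group differences were -0.26 (SE 0.59), -0.24 (SE 0.67) and -0.15 (SE 0.72), with SDs of 0.74 and 1.00, of 0.79 and 1.18, and of 0.81 and 1.28 in the TCEP and vehicle groups (n = 3 each). RT1-S3 had the same 2 rats on top, with levels of 1.81, 1.45 and 2.23 in the TCEP rats, against 2.58, 1.56 and 1.61 in the vehicle rats.

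The 2 probes of RT1-A2 placed these rats at opposite ends. One probe had levels of 2.91, 2.91 and 3.48 in the TCEP rats, against 3.79, 2.98 and 2.99 in the vehicle rats. The brighter one had levels of 3.62, 3.63 and 3.08 in the TCEP rats, against 2.38, 3.80 and 3.81 in the vehicle rats. On the first probe the third TCEP rat and the first vehicle rat were the highest of the 6, and on the second they were the lowest. The 2 probes of RT1-CE2 also turned round, with levels of 3.08, 2.99 and 3.70 in the TCEP rats, against 3.96, 3.25 and 3.18 in the vehicle rats on the brighter. On its other probe the levels were 1.80, 1.33 and 0.77 in the TCEP rats, against 0.51, 1.49 and 1.18 in the vehicle rats. RT1-A3 did not pass the filter, and its probe was well above background in 2 TCEP rats and 1 vehicle rat. Its levels were -5.65, -6.41 and -3.70 in the TCEP rats, against -2.73, -7.59 and -7.86 in the vehicle rats, again highest in the first vehicle rat and next in the third TCEP rat.

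Counted over the 42 tested class I probes, 12 deviated by 0.5 or more from the median of the 6 arrays in the third TCEP rat and 14 in the first vehicle rat. The other 4 rats had 3, 0, 0 and 0 such probes. Over all 41040 tested probes, between 3.56% and 6.49% did so per array. Both of these rats deviated to the same side on 6 of the 42 class I probes (14.3%), against 154 of the 41040 (0.375%). The pair was picked after the class I levels were seen, so this share only describes it and is no test. The class I probes stood high in spread within groups, with a median SD of 0.28, against 0.14 over all tested probes, and 6 of the 42 were in the top 5% of all.

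**Figure D3:**
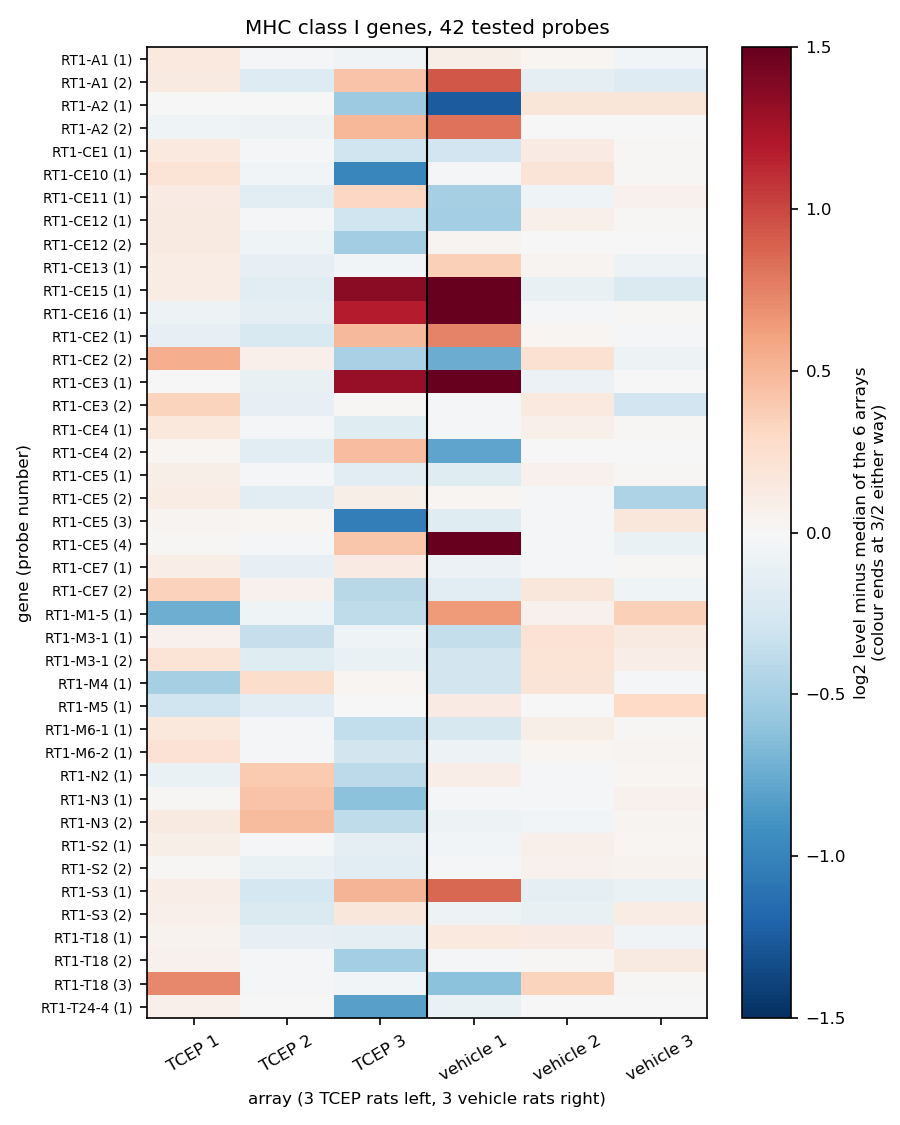
Each row is 1 of the 42 tested class I probes, numbered from the brightest within a gene, and each column is 1 array, with TCEP left of vehicle; colour gives the log2 level minus the median of the 6 arrays and ends at -1.5 and 1.5. The third TCEP rat and the first vehicle rat hold nearly all of the strong colour, on RT1-CE15, RT1-CE16, RT1-CE3, RT1-A2 and others, and some probes are off in only one of these 2 rats.

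Other probes set the third TCEP rat apart by itself. RT1-CE10 had levels of 0.22, -0.04 and -0.97 in the TCEP rats, against -0.01, 0.20 and 0.02 in the vehicle rats. RT1-T24-4 had levels of 3.55, 3.49 and 2.66 in the TCEP rats, against 3.38, 3.48 and 3.48 in the vehicle rats. RT1-N3 had levels of 0.30, 0.71 and -0.33 in the TCEP rats, against 0.25, 0.26 and 0.34 in the vehicle rats. For these 3 genes the third TCEP rat was the lowest of the 6 and the first vehicle rat lay among the rest. For RT1-N3 the second TCEP rat also stood above the others. A dim probe of RT1-CE5 set the first vehicle rat farthest apart. Its levels were -3.00, -3.04 and -2.60 in the TCEP rats, against -1.34, -3.03 and -3.11 in the vehicle rats. There the first vehicle rat stood far above the others, with the third TCEP rat next. The brightest probe of the gene differed by 0.00 between groups. On a further probe of RT1-CE5 the third TCEP rat was lowest at -2.15, against -1.29 in the first vehicle rat. RT1-CE11 and the dimmer probe of RT1-CE4 put these rats at opposite ends, the third TCEP rat highest and the first vehicle rat lowest. RT1-CE11 had levels of 0.49, 0.21 and 0.68 in the TCEP rats, against -0.13, 0.30 and 0.43 in the vehicle rats. That probe of RT1-CE4 had -0.10, -0.29 and 0.33 in the TCEP rats, against -0.92, -0.12 and -0.13 in the vehicle rats.

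The shared deviation of these 2 rats was also seen on a gene of another function beside the complex. Of 20444 named tested probes, 68 (0.333%) deviated to the same side in both, and 12 of the 68 lay on chromosome 20, which carries the rat MHC and 673 of the named tested probes. Of the 12, 6 were RT1 probes and 2 were the 2 probes of Vps52, a subunit of a complex that tethers vesicles to the Golgi, with 3 genes between it and RT1-A2 in RefSeq order. Vps52 had levels of -0.07, -0.08 and 0.47 in the TCEP rats, against 0.73, -0.06 and -0.17 in the vehicle rats on one probe. On the other probe the levels were -0.06, 0.00 and 0.60 in the TCEP rats, against 1.01, 0.05 and 0.03 in the vehicle rats. The rest of the 12 were probes of Or2n1el1, Or2n1e, Or2n1j and Grm4. On Or2n1el1, Or2n1e and Or2n1j the third vehicle rat was lowest, at -2.80, -6.94 and -5.63, below both of these rats. Grm4 was highest in the third TCEP rat (-2.52) and next in the first vehicle rat (-2.88). Vps52 was named, and the pair of rats picked, after their values were seen.

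The class I genes at an unadjusted p under 0.05 were RT1-M1-5 and RT1-M5, both lower in the TCEP rats. RT1-M1-5 had levels of -5.60, -4.95 and -5.26 in the TCEP rats, against -4.23, -4.81 and -4.52 in the vehicle rats. The difference was -0.75 (SE 0.21, 95% confidence interval -1.28 to -0.22), and the adjusted p of 0.535 from limma with Benjamini-Hochberg adjustment was the lowest of any member. RT1-M5 had levels of -2.67, -2.53 and -2.38 in the TCEP rats, against -2.25, -2.36 and -2.07 in the vehicle rats, with a difference of -0.30 (SE 0.11). The groups did not overlap for either gene, and the further probe of each was not well above background on any array. With every probe fitted by itself, 2 of 58 tested RT1 probes were lower at an unadjusted p under 0.05, against 4.83% of all probes tested, and 0 were higher, against 3.49%. The groups did not overlap for 2 of the 58, against 15.3% of all probes tested. Of the 75 RT1 probes, 17 did not pass the filter.

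RT1-A1, a classical class I gene, was steadier on its brightest probe, with levels of 5.66, 5.48 and 5.46 in the TCEP rats, against 5.60, 5.54 and 5.47 in the vehicle rats. The difference was -0.01 (95% confidence interval -0.21 to 0.19). On its other probe, the levels were 3.52, 3.19 and 3.81 in the TCEP rats, against 4.31, 3.24 and 3.19 in the vehicle rats, with the first vehicle rat highest and the third TCEP rat next, as for RT1-CE16.

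For 6 of the 9 tested genes of MHC class II with Cd74, the second vehicle rat was the highest of the 6 arrays. Class II molecules pair an alpha and a beta chain and show peptides to helper T cells, and Cd74 is the invariant chain that guides them. RT1-Da, an alpha chain, had levels of 2.86, 3.06 and 3.17 in the TCEP rats, against 2.73, 3.63 and 2.98 in the vehicle rats. RT1-Bb, a beta chain, had levels of 2.38, 2.68 and 2.49 in the TCEP rats, against 2.38, 3.21 and 2.73 in the vehicle rats. Cd74 had levels of 4.72, 4.85 and 4.94 in the TCEP rats, against 4.73, 5.27 and 5.07 in the vehicle rats. The groups overlapped for each, with the first rat of either group at the low end, and the differences were -0.08 (SE 0.24), -0.26 (SE 0.22) and -0.19 (SE 0.15).

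RT1-DMa and RT1-DMb, which exchange peptides on class II, differed by -0.11 (SE 0.13) and 0.08 (SE 0.23). RT1-DOa and RT1-DOb, which restrain that exchange, differed by -0.16 (SE 0.58) and -0.26 (SE 0.28), and the probe of RT1-DOa was well above background in 3 TCEP rats and 2 vehicle rats. Of the 9 genes tested, 3 had a positive and 6 a negative difference, and the median was -0.11. That median was 0.18 without the second vehicle rat and 0.0025 without the first TCEP rat, so its sign turned without either of these rats. The second vehicle rat was the highest of the 6 for 6 of the 9, against 15.3% of all genes tested. For RT1-Db1 it was so narrowly, at 2.6186 against 2.6184 in the third TCEP rat. RT1-DMb and RT1-Db2 were highest in the third TCEP rat, at 1.77 and 1.28, against 1.49 and 1.16 in the second vehicle rat. RT1-DMa was highest in the third vehicle rat, at 1.66. In the second vehicle rat, 13 of 17 tested probes of the 9 genes deviated upwards by 0.5 or more. That rat was picked after these levels were seen, so its share only describes it and is no test.

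Several, but not all, lists of immune cell markers were also highest in that rat. The median deviation of class II and Cd74 was -0.30, -0.01 and 0.09 in the TCEP rats, against -0.27, 0.47 and -0.04 in the vehicle rats. That of 14 tested T and NK cell markers was -0.02, -0.13 and -0.11 in the TCEP rats, against -0.19, 0.51 and -0.07 in the vehicle rats. That of 12 tested markers of macrophages, monocytes and dendritic cells was -0.08, -0.06 and -0.09 in the TCEP rats, against -0.16, 0.29 and -0.02 in the vehicle rats. All 3 lists were thus highest in the second vehicle rat, and so was the immunoproteasome at 0.30. The 7 tested neutrophil and erythroid markers were highest there too, with -0.25, -0.02 and -0.03 in the TCEP rats, against 0.22, 0.44 and -0.25 in the vehicle rats. The 3 tested B and plasma cell markers were not, with -0.40, 0.09 and 0.28 in the TCEP rats, against 0.30, 0.10 and 0.15 in the vehicle rats. Between groups, the T and NK markers had a median difference of -0.07 (5 positive, 9 negative) and the macrophage, monocyte and dendritic cell markers one of -0.13 (1 positive, 11 negative). For the neutrophil and erythroid markers it was -0.26 (0 positive, 7 negative).

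The summed signal of the 15 macrophage, monocyte and dendritic cell markers with a probe, out of 17 listed, was 97.9 to 105 times the 75th percentile in the TCEP rats, against 106.6 to 145 times in the vehicle rats. The sum over the 16 T and NK cell markers, all with a probe, was 4.94 to 6.67 times in the TCEP rats, against 5.10 to 7.53 times in the vehicle rats. Both sums are of linear signal, so the brightest marker of each list, Lyz2 and Ccl5, weighs most. Lyz2 had levels of 6.272, 6.186 and 6.339 in the TCEP rats, against 6.384, 6.812 and 6.336 in the vehicle rats. The groups thus overlapped for Lyz2 by itself. Of the 16 T and NK cell markers, 14 were well above background on all 6 arrays, among them Cd3d and Cd3g. Cd3e was so in 2 rats of each group and Cd5 in 1 rat of each. Of the 15 macrophage, monocyte and dendritic cell markers, 12 were so on all 6, among them Cd68 and Lyz2. Itgam was so in 1 vehicle rat alone, and Xcr1 and Cd163 on no array. Of 8 B and plasma cell markers, 3 were tested, with a median difference of -0.23. The part of these cells in the class II levels was not tested.

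**Figure D4:**
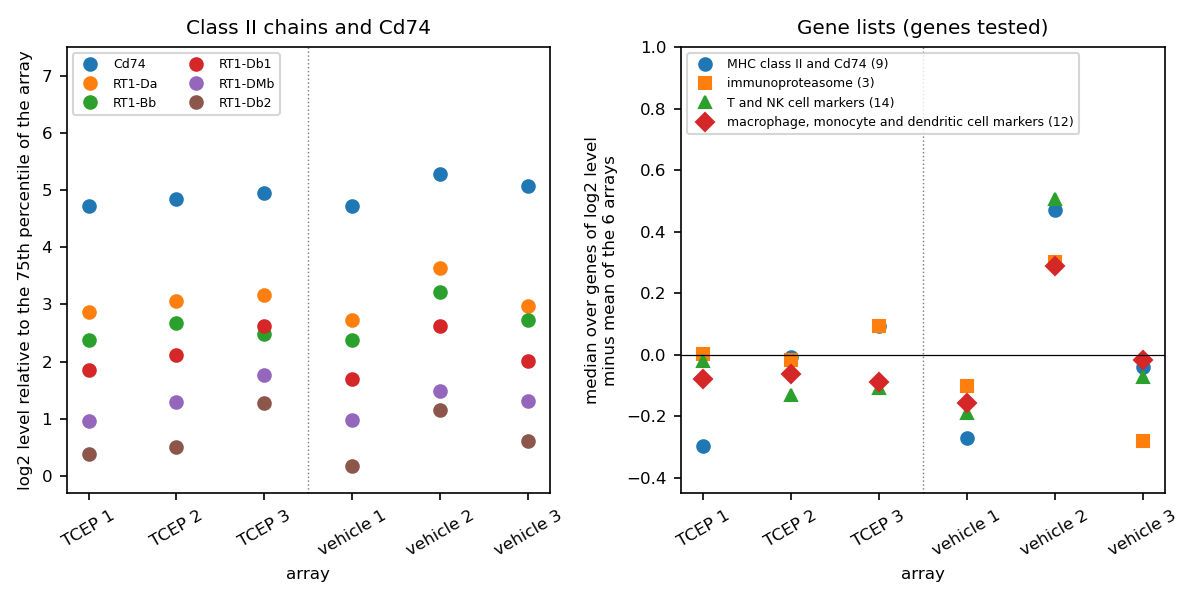
The left panel gives the log2 level, on the scale of the text, of 5 class II genes and Cd74 on each array, and the right panel the median deviation of 4 gene lists from their own means, with TCEP left of vehicle in both. In the right panel the second vehicle rat stands at 0.47 for class II and Cd74 and at 0.51 for the T and NK cell markers, above all other arrays.

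Single class II probes also set the third TCEP rat apart. A probe of RT1-Bb had levels of -8.37, -8.13 and 3.04 in the TCEP rats, against -8.19, -8.31 and -8.05 in the vehicle rats. It was well above background in the third TCEP rat alone, while the brightest RT1-Bb probe did not set that rat apart. Of the 5 probes of RT1-Db1, a beta chain, one had levels of 1.42, 1.75 and 3.64 in the TCEP rats, against 1.38, 2.24 and 1.66 in the vehicle rats. The dimmest, in contrast, had levels of -1.95, -1.75 and -2.09 in the TCEP rats, against -2.03, -0.96 and -1.50 in the vehicle rats, highest in the second vehicle rat and lowest in the third TCEP rat. The median SD within groups of the 16 tested class II probes was 0.40, beside 0.14 over all tested probes.

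Probes of the same gene often disagreed on the sign of the difference. Of the 29 members with several tested probes, 15 had probes of opposite sign, among them RT1-A2, RT1-CE2, Mx2 and Oas1a. Oas1a, with a difference of -0.16 on its brightest probe, had 0.02 on the other, and the first TCEP rat was highest and the second lowest on both. With 3 rats a group, an exact permutation test over rats cannot give a p below 0.1, so limma's estimate of the spread, shared over all genes, carries the tests given.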

How the data were processed

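The scanner files were made by the authors with Agilent Feature Extraction 10.7.1.1, per the file headers (10.7 per the submitters' processing notes). The deposited processed signal is a linear intensity, background-subtracted by that software. The files also hold deposited flags of 0 or 1 (other values) for controls, outliers, a signal well above background and saturation. In the deposited series matrix stands the same signal divided by a constant per array, and the ratio spread by at most 0.0011% within an array. It has a linear scale, no centring of genes was seen, and a 1-colour value has no direction.

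From these, 12 outlier probes and all controls were left out, log2 signals minus the 75th percentile of each array were taken, and at most 1 probe per array was saturated. Probes were named by RefSeq accession without version (GRCr8 table, names and gene order only): 27460 of 61657 probes (44.5%) matched. A gene was its probe with the highest mean log2 signal and passed the filter when every array of 1 group or of both was well above background for it. limma 3.58.1 in R 4.3.3 (lmFit, eBayes, two-sided, 5.93 degrees of freedom) compared TCEP with vehicle, with Benjamini-Hochberg adjustment over all genes, or over all probes for the fit by probe, and a call at an adjusted p under 0.05. The fit was tested on simulated data. Python 3.11.15, pandas 2.3.3, numpy 2.4.6 and matplotlib 3.10.9 made the tables and figures.

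The design text calls the rats biological replicates, so p-values set a group difference against the spread between rats within groups. Each group lay on its own slide, so variation between slides is in the difference but not in that spread. The number of arrays limits the precision. The members and all gene lists were chosen with earlier results of these data known. The rule for names allowed every member, with values per array for those with a large difference, a large spread or no overlap, and up to 2 genes of each other list with the smallest p. A selection is described. Alternatives were other normalizations, background correction, filters, the mean over probes, the series matrix, a replicate block and leaving out arrays.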

Additional observations from a re-analysis of the deposited data

How the results depend on the processing

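Under all 15 alternatives, 0 genes passed the adjusted threshold, among the members and among all genes (limma, 983 of 11804 at an unadjusted p under 0.05). With normexp background correction (offset of 50, on median spot signals, since mean signals were not used here), 1568 genes were at an unadjusted p under 0.05. The RT1 probes also had 0 calls wherever the fit by probe was run. The replicate numbers were not taken as pairs. Deviations of same-numbered rats from their group means correlated at -0.15, -0.10 and 0.23, and the first TCEP rat correlated best with the second vehicle rat. With 3 rats a group these values constrain each other, so they cannot decide whether rats were paired in handling. With the replicate number as a block, 0 genes passed, 850 were at an unadjusted p under 0.05, and the median of the members was again -0.07.

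Leaving out each array in turn gave medians of -0.08 to -0.02 for all members, -0.12 to 0.10 for the interferon-response members, -0.10 to 0.02 for class I and -0.20 to 0.18 for class II with Cd74. The class I median was 0.019 without TCEP replicate 3, the class II median was 0.0025 without TCEP replicate 1, the interferon-response median was -0.0002 without vehicle replicate 1, and the cause was not tested. Without TCEP replicate 3 and vehicle replicate 1 together, chosen after seeing the data, the medians were -0.05 for all members, 0.00 for the interferon-response members, -0.01 for class I and -0.34 for class II with Cd74. Of the 56 tested members, 11 kept their sign under all alternatives and 45 did not. No scaling moved the median of all genes past 0.1. Dim probes such as RT1-M1-5 are limited by signal over background.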
